A study of Mus musculus with 8 samples.

Results

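The genes described here are the receptor and the main enzymes of the brain endocannabinoid system, taken by symbol: Cnr1, Dagla, Daglb, Mgll, Faah, Napepld and Abhd6. All 7 were found among the 33885 symbols that the count tables of both regions share, and all 7 had enough reads to be tested in each comparison. Their levels come from total RNA sequencing of brain tissue, with 2 libraries in each of 4 groups of adult C57Bl6J males. The nucleus accumbens (NAc), a ventral striatal region involved in reward, was taken after cocaine place-preference conditioning (7.5 mg/kg, intraperitoneal) and from mice that stayed in the home cage. The medial prefrontal cortex (mPFC) came from mice after social defeat by an aggressive male CD1 mouse and from home-cage mice. Tissue was dissected 15 min after the experience. The labels name no transgene in any group, and the titles of all mPFC libraries, of both groups, carry the letters WT. The labels name no saline or handling control either, so that the home-cage groups do not separate drug or defeat from injection, handling or a new environment. Replicate numbers of the NAc libraries come from their titles. The mPFC titles run through both groups in 1 series of numbers, so here the libraries are called 1 and 2 within each group in the order of deposit. Nothing in the labels ties a library to 1 animal or pool, so the p-values reflect the spread between these libraries alone, which may be technical.

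Endocannabinoids are lipid messengers that neurons make on demand. The CB1 receptor, encoded by Cnr1, is a Gi/o-coupled receptor that sits mostly on axon terminals, where its activation lowers transmitter release. The best known ligands are 2-arachidonoylglycerol (2-AG) and anandamide. 2-AG is made from diacylglycerol by the diacylglycerol lipases, of which the product of Dagla is the main one at adult synapses and the product of Daglb is prominent in microglia. It is broken down mainly by monoacylglycerol lipase (Mgll), in terminals and astrocytes, and in part by the serine hydrolase ABHD6 (Abhd6). Anandamide can be released from its phospholipid precursor by NAPE-PLD (Napepld) and is broken down by fatty acid amide hydrolase (Faah). In both NAc and mPFC, 2-AG released from postsynaptic cells acts backwards on CB1 receptors of glutamatergic and GABAergic inputs.

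Between home-cage NAc and mPFC, 2 of the 7 genes passed the test, and both were lower in NAc: Napepld by 1.99-fold and Dagla by 1.51-fold. Over all genes 5.35% were called lower and 7.01% higher there. After the experiences 4 of 7 passed, all lower in NAc: these 2 genes, Daglb and Abhd6, where 17.1% of all genes were called lower and 19.2% higher. These calls were lost when single mPFC libraries were left out, while no fold change of the 7 turned its sign. The home-cage calls were lost without either mPFC home-cage library, along with those of all other genes. More of the 7 were called without either NAc home-cage library. The exposed calls were lost without defeat library 1. Such fits take the spread of the remaining library from the other group, so they cannot show whether 1 library carried a difference. Cnr1 was the 1 gene of the 7 with a higher mean in NAc, and its difference did not pass the test. None of the 7 passed the test after cocaine in NAc or after social defeat in mPFC. Each value below is a difference in RNA per library, and in tissue such as this, fewer cells of a type and less RNA per cell cannot be told apart.

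The stretches upstream of the starts of Napepld, Daglb and Abhd6 are printed beside that of Cnr1, which was not called. In the main fits Napepld was called lower in NAc in both region comparisons, and Daglb and Abhd6 only in exposed mice. The base composition and motifs of these stretches can be compared, and a link to the region differences was not tested. The sequences are from RefSeq on GRCm38.p6, read 5′ to 3′ on the gene's strand. Each ends at the base before the start annotated there. For the printed windows that start differs from the one in the GENCODE M21 positions below, so distances hold for the RefSeq start. RefSeq windows were matched for 6 of the 7 genes and Dagla had no entry. Cnr1 has 3 windows, 1 for each annotated start, and Abhd6 has 2. The one farthest upstream is printed for each. Capitals mark the motifs searched.
Cnr1 (chr4:33924014-33924263, plus strand): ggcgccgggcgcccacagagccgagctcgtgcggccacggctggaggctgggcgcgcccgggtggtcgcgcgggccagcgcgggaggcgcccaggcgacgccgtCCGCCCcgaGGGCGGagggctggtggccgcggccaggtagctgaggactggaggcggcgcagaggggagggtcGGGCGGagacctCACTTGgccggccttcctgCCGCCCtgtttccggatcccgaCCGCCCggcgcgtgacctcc
Napepld (chr5:21701623-21701872, minus strand): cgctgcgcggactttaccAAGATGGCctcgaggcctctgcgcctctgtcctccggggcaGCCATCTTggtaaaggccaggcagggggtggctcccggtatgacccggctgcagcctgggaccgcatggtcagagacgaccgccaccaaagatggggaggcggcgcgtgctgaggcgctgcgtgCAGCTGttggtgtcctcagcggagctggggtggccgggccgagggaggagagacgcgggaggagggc
Daglb (chr5:143464243-143464492, plus strand): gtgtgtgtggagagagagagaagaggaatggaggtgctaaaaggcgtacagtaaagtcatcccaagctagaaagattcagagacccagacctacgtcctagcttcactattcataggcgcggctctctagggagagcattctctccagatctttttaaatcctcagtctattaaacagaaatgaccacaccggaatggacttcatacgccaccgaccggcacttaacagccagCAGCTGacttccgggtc
Abhd6 (chr14:8002638-8002887, plus strand): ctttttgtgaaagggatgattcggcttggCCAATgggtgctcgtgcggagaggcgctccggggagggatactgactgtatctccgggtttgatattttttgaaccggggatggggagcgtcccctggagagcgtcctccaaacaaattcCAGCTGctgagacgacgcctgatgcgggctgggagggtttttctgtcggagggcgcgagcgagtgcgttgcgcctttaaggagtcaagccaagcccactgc

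The printed windows of Cnr1 and Napepld were rich in G and C, at 79.2% and 69.6%, against a median of 52.4% over 32851 windows of the same length. They held 36 and 21 CpG pairs, against a median of 6. The other Cnr1 windows had 68.8% and 49.2% G and C, with 28 and 5 CpG pairs, so that this composition depends on the start taken. Those of Daglb (49.2%, 9 CpG pairs) and Abhd6 (58.4%, 18 CpG pairs) were closer to the median. Motifs were searched on both strands, as letters. In its printed window Cnr1 had 5 GC boxes (GGGCGG), the letters that Sp-family factors are known to bind. The other 2 Cnr1 windows had none. A GC box occurs in 32.74% of all windows. Napepld had none in its window. It carried 2 copies of AAGATGGC, the core that the factor YY1 is known to bind, whose first bases lie 232 and 191 bases before the start. That motif was chosen after the sequence was read, and 1.56% of all windows hold it. The Abhd6 window had a CCAAT box 221 bases before the start (33.85% of all windows), while its second window had a GC box and no CCAAT box. Each of the 4 printed windows had an E-box (CANNTG), as had 66.22% of all. The letters of 3 sites linked to activity-dependent transcription were absent from the 10 windows of the 6 matched genes: the cAMP response element TGACGTCA (1.55% of all windows), the AP-1 site TGANTCA (6.75%) and the Egr site GCGTGGGCG (0.54%). The window of Fos, a gene that rose after defeat, lacked them too.

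The 7 genes lie on 5 chromosomes and are protein-coding. In GENCODE M21 (GRCm38, the same sequence as mm10), Cnr1 (ENSMUSG00000044288.6) lies at chr4:33924593-33948831 on the plus strand and Faah (ENSMUSG00000034171.13) on the same chromosome at chr4:115967145-116017926, minus strand. Napepld (ENSMUSG00000044968.16) lies at chr5:21662901-21701396, minus strand, and Daglb (ENSMUSG00000039206.13) at chr5:143464584-143505942, plus strand. Dagla (ENSMUSG00000035735.10) lies at chr19:10245265-10304877, minus strand. The hydrolase genes Mgll (ENSMUSG00000033174.17) and Abhd6 (ENSMUSG00000025277.14) lie at chr6:88724412-88828360 and chr14:8002902-8056763, both on the plus strand. Daglb overlaps Rac1 on the opposite strand over 2309 bases, 5.58% of its span. Dagla, Mgll and Napepld overlap only non-coding models that the count tables do not list. The strand setting of the counting is not given in the sources used here, so reads of Daglb and Rac1 in that overlap may not be told apart.

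Library totals ranged from 111901829 to 179479978 counts. The 7 genes had between 1153 counts (Napepld) and 44004 counts (Mgll) in a library. Levels are given as CPM (counts scaled to a common library total), with totals adjusted by TMM, a method that corrects for composition. The experience labels were checked on Fos, Npas4, Arc and Egr1, genes that neurons switch on within minutes of activity. After social defeat all 4 were higher, Fos by 2.09, Npas4 by 2.03, Arc by 1.72 and Egr1 by 0.51 on the log2 scale (edgeR adjusted p = 2.43e-28, 2.43e-28, 3.61e-24 and 1.26e-05). After cocaine the fitted differences were 1.73, 1.69, 0.95 and 0.20. In each of the 4, the lower cocaine library exceeded the higher home-cage library, and none passed the adjusted threshold. For Egr1 these 2 libraries were nearly equal, at 149.8 and 149.5 CPM. Of all genes tested, 11.2% were higher after cocaine in this way. Markers of the regions separated NAc from mPFC, but the NAc libraries numbered 2 stood apart. The mean log2 CPM of 10 striatal markers minus that of 8 cortical markers was 2.96 and 3.58 in the cocaine and home-cage libraries numbered 1. In those numbered 2 it was 0.74 and 0.61, and in mPFC between -3.31 and -3.27. The summed striatal markers were 5236 and 5985 CPM in the NAc libraries numbered 1, 2144 and 1825 CPM in those numbered 2, and 555 to 649 CPM in mPFC. No striatal or cortical marker of these lists was at 0 in any library.

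Cnr1, the receptor gene, was near its mPFC level in the NAc libraries numbered 1 and above it in those numbered 2. It stood at 191 and 264 CPM in NAc home-cage libraries 1 and 2, at 180 and 249 CPM in the cocaine libraries, at 181 and 172 CPM in mPFC home-cage libraries and at 183 and 170 CPM after defeat. Both NAc libraries numbered 2 were above every other library. The ranges of the regions overlapped only through cocaine library 1, which lay within the range of the mPFC libraries. In home-cage mice alone, both NAc libraries were above both mPFC libraries.

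Dagla, the main 2-AG synthase gene of neurons, was lower in every NAc library than in any mPFC library. Its level was 156 and 181 CPM in NAc home-cage mice, 166 and 165 CPM after cocaine, 242 and 263 CPM in mPFC home-cage mice and 239 and 244 CPM after defeat. Daglb, which encodes the related lipase, stood at 33.7 and 37.9 CPM in NAc home cage, 35.5 and 36.7 CPM after cocaine, 44.8 and 45.1 CPM in mPFC home cage and 42.4 and 42.0 CPM after defeat. As with Dagla, the ranges of the regions did not overlap.

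Mgll, the main 2-AG hydrolase gene, stood at 249 and 192 CPM in NAc home cage, 247 and 205 CPM after cocaine, 285 and 285 CPM in mPFC home cage and 254 and 267 CPM after defeat. The NAc libraries numbered 1 came close to the lower defeat library. Abhd6, which encodes the second 2-AG hydrolase of this list, stood at 45.4 and 47.2 CPM in NAc home cage, 48.5 and 47.8 CPM after cocaine, 56.2 and 56.4 CPM in mPFC home cage and 58.3 and 63.7 CPM after defeat. Its replicates lay close together in NAc, and all NAc libraries were below all mPFC libraries.

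Napepld, for the synthesis of anandamide, stood at 6.87 and 10.4 CPM in NAc home cage, 8.27 and 10.3 CPM after cocaine, 17.7 and 16.6 CPM in mPFC home cage and 17.7 and 18.4 CPM after defeat. No NAc library reached the mPFC range. Faah, for anandamide breakdown, stood at 45.1 and 75.2 CPM in NAc home cage, 49.7 and 68.3 CPM after cocaine, 80.3 and 83.2 CPM in mPFC home cage and 79.6 and 79.1 CPM after defeat. The NAc libraries numbered 2 came closer to the mPFC range than those numbered 1, and none reached it.

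**Figure D1:**
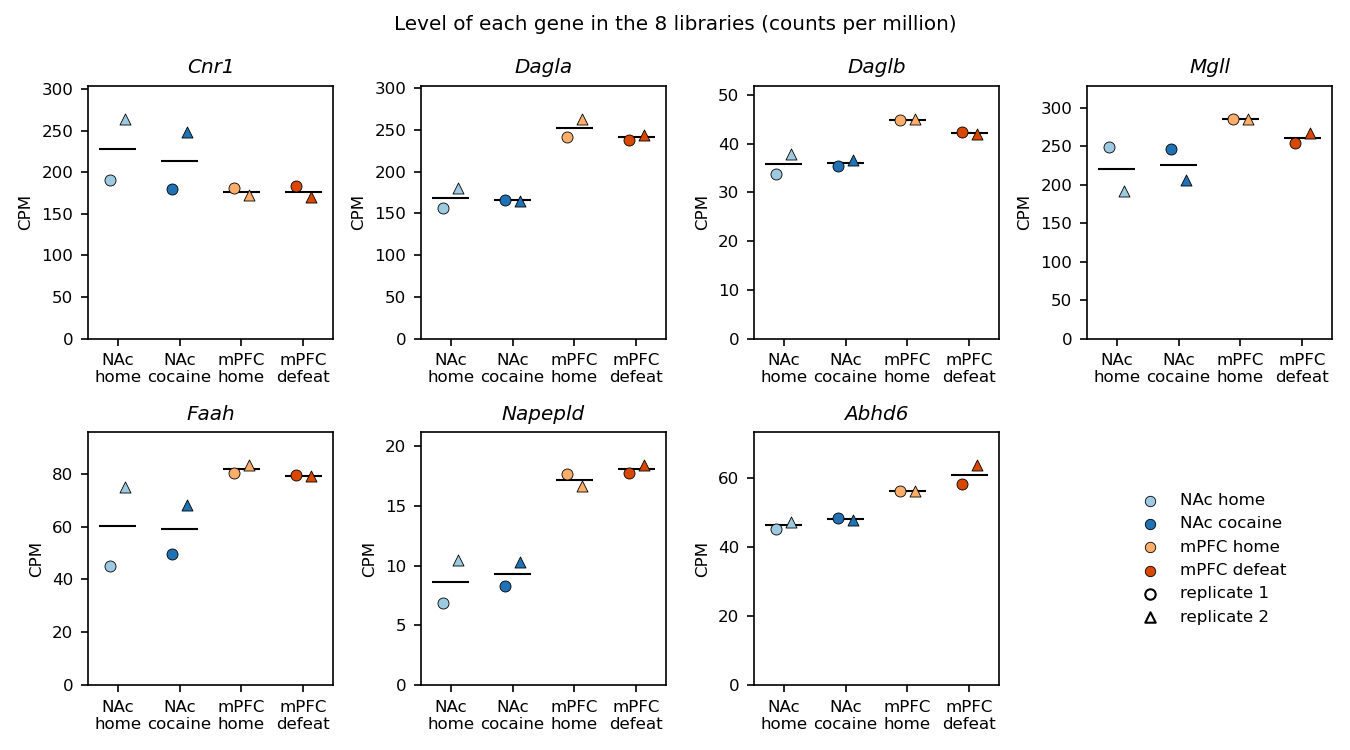
Level of each gene in CPM (vertical axis, from 0) in the 4 groups, with 1 point per library, circles for replicate 1, triangles for replicate 2 and a line at the group mean of 2. Dagla, Daglb, Mgll, Faah, Napepld and Abhd6 sit lower in all NAc libraries than in any mPFC library, and the triangles of Cnr1 in NAc (249 and 264 CPM) sit above all other libraries. Of all genes, 30.6% lay lower in both NAc libraries in home-cage mice and 38% in exposed mice. The share of genes separated over all 8 libraries was not counted.

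To compare levels between genes, CPM was divided by the length of the gene's merged exons. In mPFC home-cage mice Mgll was highest at 56.1 ± 0.0483 CPM per kb of exon (SD, n = 2), followed by Dagla at 44.0 ± 2.60, Cnr1 at 27.4 ± 0.963, Abhd6 at 23.8 ± 0.0367, Faah at 10.4 ± 0.266, Daglb at 4.70 ± 0.0200 and Napepld at 4.34 ± 0.182. In NAc home-cage mice the order was Mgll (43.4 ± 7.93), Cnr1 (35.3 ± 8.06), Dagla (29.3 ± 3.01), Abhd6 (19.6 ± 0.535), Faah (7.67 ± 2.72), Daglb (3.74 ± 0.312) and Napepld (2.19 ± 0.640). In NAc home-cage mice the neighbours Mgll and Cnr1, and Cnr1 and Dagla, differed by less than the larger of their SDs. After cocaine Mgll (44.5 ± 5.74) and Cnr1 (33.3 ± 7.52) differed by more, and Cnr1 and Dagla (28.8 ± 0.135) by less. After defeat Napepld (4.56 ± 0.120) and Daglb (4.41 ± 0.0275) changed places. The option for intronic reads is not given in the sources used here, and it bears on this order: genes with a span over 100 kb held 44.12% of the mean CPM with 21.55% of the exon length. Per kb of gene span, Cnr1 came first in every group (9.40 ± 2.14 in NAc and 7.30 ± 0.256 in mPFC home cage), then Dagla (2.83 ± 0.290 and 4.24 ± 0.251) and Mgll (2.12 ± 0.387 and 2.74 ± 0.00236), and Napepld remained last (0.225 ± 0.0657 and 0.446 ± 0.0187).

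Ratios of the counts of 2 genes within a library do not depend on its total. They compare RNA counts of genes of unequal length, so that their change between libraries can be read and their size cannot. They were chosen after the levels were seen and are given without a test. Dagla over Daglb was 4.64 and 4.77 in NAc home cage, 4.69 and 4.50 after cocaine, 5.40 and 5.84 in mPFC home cage and 5.63 and 5.81 after defeat. Thus Dagla was higher relative to Daglb in all mPFC libraries. Faah over Napepld, genes of anandamide breakdown and synthesis, was 6.56 and 7.19 in NAc home cage, 6.01 and 6.63 after cocaine, 4.54 and 5.0 in mPFC home cage and 4.50 and 4.30 after defeat. All NAc libraries were above all mPFC libraries in this ratio. Mgll over Dagla, genes of 2-AG breakdown and synthesis, overlapped between the regions: it was 1.59 and 1.06 in NAc home cage, 1.48 and 1.24 after cocaine, and 1.06 to 1.18 in the mPFC libraries.

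The comparison of cocaine-conditioned with home-cage mice asks whether RNA levels in NAc differed 15 min after the experience. It does not show when during the conditioning a difference would have arisen. No change of any of the 7 genes was detected. Fitted log2 fold changes ran from -0.08 (Cnr1) to 0.11 (Napepld), 4 were positive and 3 negative, and their median was 0.02 against -0.01 over the 18418 genes tested. Every edgeR adjusted p was 1.0. Over all genes 0% were called higher and 0% lower, with 211 at an unadjusted p under 0.05, while DESeq2 called 4 genes, none of the 7. The 95% intervals show what was within reach. They were narrow for Abhd6 (0.07, SE 0.0742, -0.13 to 0.26), Daglb (0.02, SE 0.0923, -0.23 to 0.27) and Dagla (-0.02, SE 0.112, -0.32 to 0.28). They were wide for Cnr1 (-0.08, SE 0.239, -0.72 to 0.56), Napepld (0.11, SE 0.246, -0.55 to 0.77) and Faah (-0.02, SE 0.298, -0.82 to 0.78), with Mgll between them (0.05, SE 0.181, -0.44 to 0.53). In this fit, which takes the spread between the NAc numbers as error, the interval of Faah reached from 1.76-fold down to 1.72-fold up. Among the 7, the cocaine libraries stood clear above the home-cage libraries for Abhd6 and clear below for none, where 11.2% and 13.2% of all genes did. The signs of 6 of the 7 fold changes, all but that of Abhd6, turned when a single NAc library was left out.

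The comparison of defeated with home-cage mice asks the same in mPFC. None of the 7 genes passed the test there either, in libraries that lay closer together. The largest fitted change was that of Mgll, whose values went from 285 and 285 CPM to 254 and 267 CPM. This is a log2 fold change of -0.14 (SE 0.0788, 95% interval -0.30 to 0.02, unadjusted p = 0.0816, adjusted p = 0.797, edgeR). Abhd6, the other 2-AG hydrolase gene, had a positive value of 0.11 (SE 0.0769, -0.05 to 0.26, adjusted p = 0.917), and Daglb a negative one of -0.10 (SE 0.0776, -0.25 to 0.06, adjusted p = 0.940). Dagla (-0.07, SE 0.0789), Faah (-0.05, SE 0.0756), Napepld (0.06, SE 0.0855) and Cnr1 (-0.01, SE 0.0769) were nearer to 0. Their adjusted p-values ran from 0.978 to 0.998. Among all 18027 genes tested, 0.549% were called higher and 0.155% lower, so 0 of 7 is close to that background. Both defeat libraries lay below both home-cage libraries for 3 genes (Mgll, Daglb and Faah) and above for 2 (Abhd6 and Napepld), where 15.8% and 18.3% of all genes did so. No interval of the 7 reached beyond 1.23-fold lower or 1.20-fold higher. The intervals rest on the spread between these libraries, which may be technical, so they do not bound the change between animals. The median was -0.05, against -0.00 over all genes.

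Whether the responses to cocaine and to defeat differ was tested in 1 fit of all 8 libraries. For the 7 genes the difference, cocaine response minus defeat response, ran from -0.07 (Cnr1) to 0.19 (Mgll, SE 0.200) on the log2 scale, with 95% bounds between -0.75 and 0.82 and edgeR adjusted p = 1.0 for each. Of 18783 genes, 0% were called with a higher and 0% with a lower cocaine response, with 415 at an unadjusted p under 0.05. DESeq2 called 2 genes, none of them of the 7. The responses also differ in region and kind of experience together, so that neither could be tested apart from the other.

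Home-cage mice of the 2 regions were compared to describe where these genes are more or less abundant without a recent experience. Of the 7, 6 lay lower in both NAc libraries than in both mPFC libraries, and Cnr1 lay higher in both. The median log2 fold change was -0.38, against 0.01 over all genes. Among 18300 genes, 30.6% lay lower in this way and 32.8% higher. Napepld was 8.66 ± 2.53 CPM in NAc and 17.2 ± 0.721 CPM in mPFC (SD, n = 2), a log2 fold change of -0.995 (SE 0.213, 95% interval -1.53 to -0.46, edgeR adjusted p = 0.0427). Dagla was 168 ± 17.3 CPM and 253 ± 15.0 CPM, which gave -0.59 on the log2 scale (SE 0.127, -0.91 to -0.27, adjusted p = 0.0427). These were the 2 genes called, both lower.

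The other enzyme genes had intervals that reached closer to 0 or past it. The value of Daglb was -0.34 (SE 0.101, edgeR adjusted p = 0.0894), Abhd6 of -0.29 (SE 0.0876, adjusted p = 0.0911), Mgll of -0.38 (SE 0.154, adjusted p = 0.164) and Faah of -0.45 (SE 0.243, adjusted p = 0.270). Cnr1 was 228 ± 52.0 CPM in NAc and 177 ± 6.20 CPM in mPFC. Its log2 fold change was 0.36 (SE 0.177, 95% interval -0.09 to 0.80, adjusted p = 0.239), which does not show that the receptor RNA is alike in the regions. Its NAc value rested on library 2. Without NAc home-cage library 1, Cnr1 stood at 0.58 and Mgll at -0.58. Without NAc home-cage library 2, Faah stood at -0.87. These fits called more genes than the fit with both, among the 7 and over all genes. Their spread came from the mPFC pair alone, so their calls do not measure the spread in NAc. Without either mPFC home-cage library no gene of any kind was called, and Napepld remained at -0.96 and -1.04 (adjusted p = 0.297 and 0.257) and Dagla at -0.66 and -0.53 (adjusted p = 0.299 and 0.360).

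After the experiences, cocaine NAc was set against defeat mPFC. Region and experience differ together here, so the values are read beside those of the home-cage mice. Again 6 genes lay lower in both NAc libraries, and Cnr1 overlapped, where 38% of 18362 genes lay lower and 36.5% higher. The 4 members called were Napepld, with 9.29 ± 1.44 CPM in NAc and 18.0 ± 0.473 CPM in mPFC (SD, n = 2) and a log2 fold change of -0.94 (SE 0.118, edgeR adjusted p = 0.00416), Dagla at -0.53 (SE 0.0727, adjusted p = 0.00534), Abhd6 at -0.33 (SE 0.0694, adjusted p = 0.0179) and Daglb at -0.21 (SE 0.0597, adjusted p = 0.0400). Both diacylglycerol lipase genes and a gene each of 2-AG breakdown and anandamide synthesis were thus lower in NAc. Faah at -0.41 (SE 0.149, adjusted p = 0.0792), Mgll at -0.19 (SE 0.111, adjusted p = 0.227) and Cnr1 at 0.29 (SE 0.159, 95% interval -0.10 to 0.69, adjusted p = 0.201) were not called. Daglb lost its call without cocaine library 1 (adjusted p = 0.0590) and in the fit of all 8 libraries (adjusted p = 0.0641), and DESeq2 also called Faah (-0.42, adjusted p = 0.0396). Without defeat library 1 none of the 7 was called, and without defeat library 2 Napepld alone. Without cocaine library 1, Cnr1 stood at 0.50. Fits without either cocaine library called more of the 7, but their spread came from the defeat libraries alone. Over all genes 1133 and 1553 were called without defeat library 1 or 2, and 8253 and 9334 without cocaine library 1 or 2, against 6672 with all 4.

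**Figure D2:**
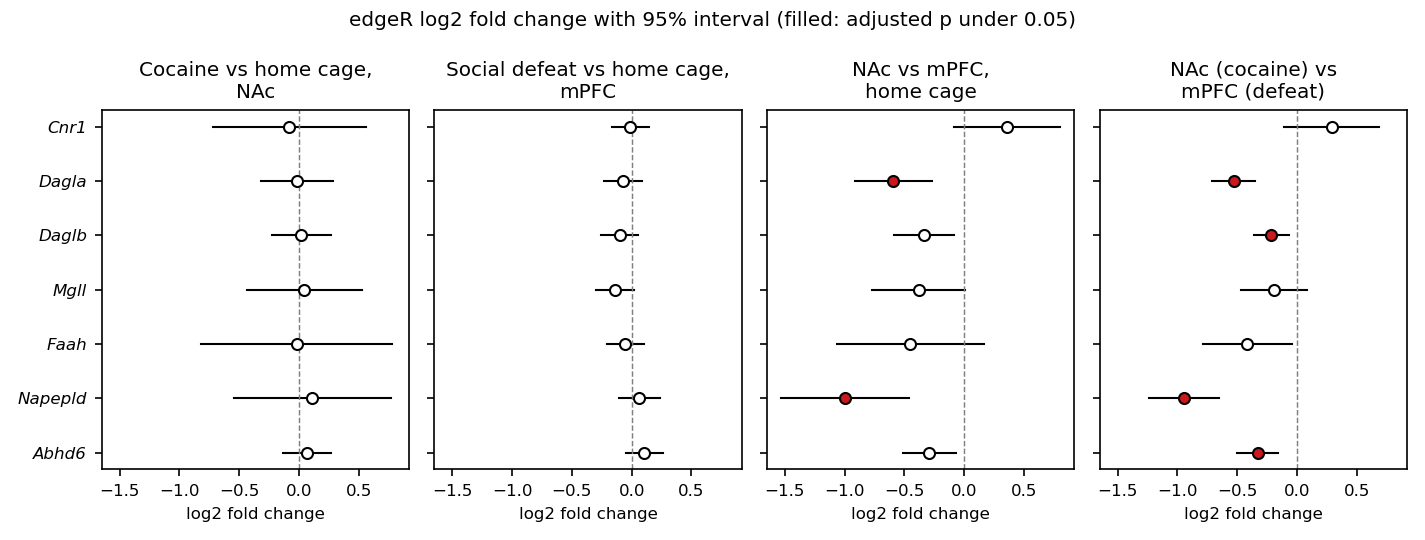
Log2 fold change (horizontal axis) with its 95% interval for each gene in 4 comparisons, filled where the edgeR adjusted p is under 0.05. Napepld and Dagla are filled in both region panels, Daglb and Abhd6 in the panel of exposed mice, and no gene is filled for cocaine or defeat.

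The NAc libraries numbered 2, which held less striatal and more cortical marker RNA, also differed in the 7 genes. Cnr1 was 1.38 times as high in number 2 as in number 1 in both the home-cage and the cocaine group, and there it lay outside the span between its number 1 and mPFC values. Mgll was 0.771 and 0.833 times as high in number 2, also outside that span. Faah was 1.67 and 1.37 times and Napepld 1.52 and 1.25 times as high, between the number 1 and the mPFC values. The ratios of Daglb (1.13 and 1.03), Dagla (1.16 and 0.993) and Abhd6 (1.04 and 0.985) were nearer to 1 than those above. A fit of all 8 libraries but both NAc libraries numbered 2 was an alternative chosen after seeing the data. There Faah stood at -0.87 on the log2 scale in the home-cage comparison. Each NAc group then held 1 library, so the spread came from the mPFC libraries alone. The calls of that fit therefore do not measure the spread in NAc. Sums over the marker lists of interneurons, astrocytes and oligodendrocytes differed by region or library. The 8 interneuron markers summed to 874 to 1196 CPM in NAc and 774 to 865 CPM in mPFC. Their mean log2 CPM went the other way, at 5.29 to 5.51 in NAc and 5.63 to 5.72 in mPFC. The markers of this list differed in direction. Gad1, Gad2 (195 to 475 CPM in NAc, 113 to 119 CPM in mPFC) and Slc32a1 were higher in all NAc libraries. Cck, Pvalb (1.66 to 3.41 and 14.0 to 16.8 CPM) and Vip were lower in all of them, and Sst and Htr3a overlapped. The sums therefore do not show more interneuron RNA in NAc. The 8 astrocyte markers summed to 2505 to 2748 CPM in NAc and 3704 to 3974 CPM in mPFC, most of it from Slc1a2 (1841 to 2064 CPM in NAc, 2922 to 3203 CPM in mPFC), while Gfap overlapped (19.8 to 38.1 and 25.1 to 30.1 CPM). The 8 oligodendrocyte markers summed to 1301 CPM in NAc home-cage library 2, 2171.1 to 2457 CPM in the other NAc libraries and 1067 to 1441 CPM in mPFC. Summed microglial markers overlapped (94.5 to 113 CPM in NAc, 112 to 124 CPM in mPFC), as did endothelial markers (89.9 to 104 and 92.2 to 112 CPM). No astrocyte, oligodendrocyte or endothelial marker was at 0. Of the 6 microglial markers 1, P2ry12, was listed at 0 in every library. It lies inside another protein-coding gene, Med12l, and 99.65% of the 856 protein-coding genes that lie so are at 0 in every library, against 9.67% of the others, so that a 0 for such a gene may not be read as absent RNA. The part of these cell types, or of the dissection, in the region differences was not tested.

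**Figure D3:**
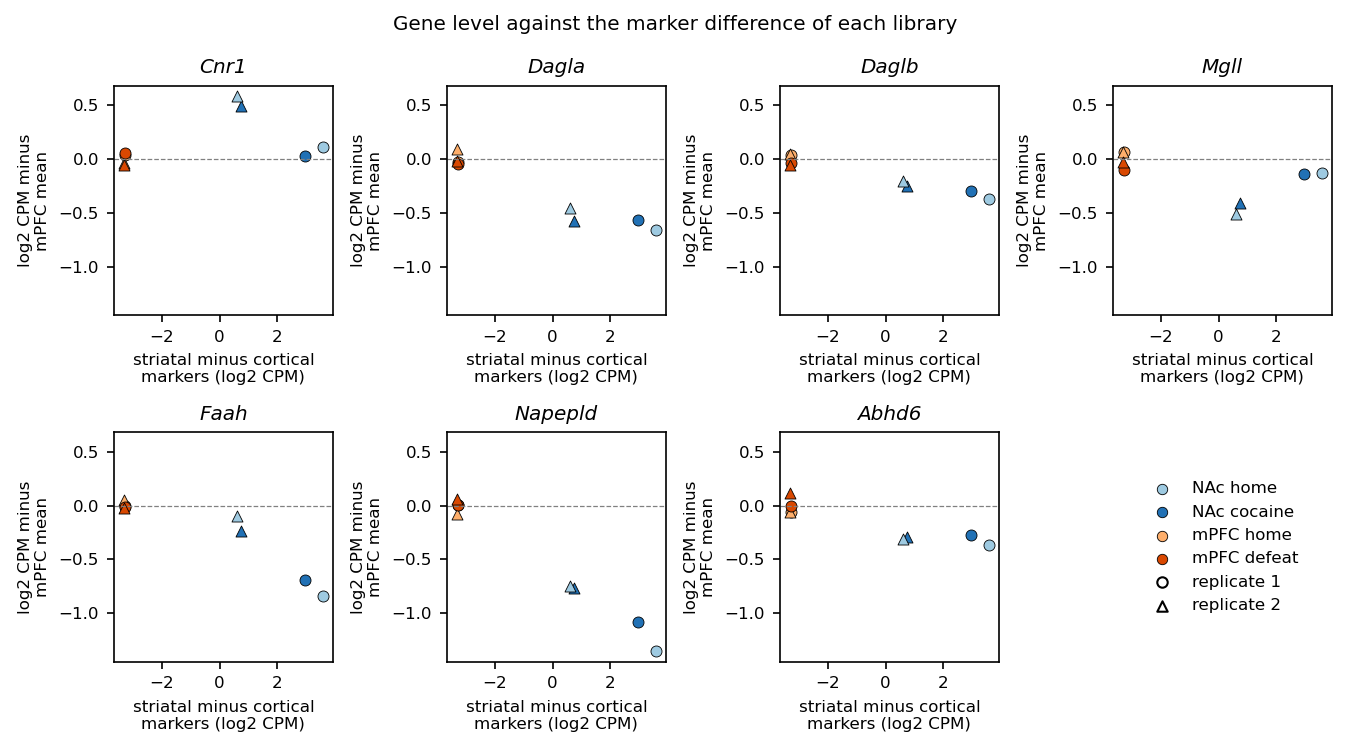
Log2 CPM of each gene minus its mean over the mPFC libraries (vertical axis) against the striatal minus cortical marker difference of the library (horizontal axis, log2 CPM), 1 point per library, triangles for replicate 2. The NAc libraries numbered 2 lie at 0.74 and 0.61 on the horizontal axis, where Faah and Napepld sit between the other NAc libraries and mPFC and Cnr1 sits above both.

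Genes with the most similar pattern over the 8 libraries were looked up for members whose group means spanned at least 1.5-fold, which were Dagla and Napepld. Likeness was the root mean square difference of log2 CPM after each gene was centred on its own mean, over 13084 genes. Closest to Dagla were Plbd2 (0.0394, Pearson's r = 0.992) and Madd (0.0427, r = 0.989). Closest to Napepld were Pgm2l1 (0.0456, r = 0.997) and Zbtb46 (0.0601, r = 0.994). Plbd2, for example, stood at 45.4 to 54.7 CPM in NAc and 71.8 to 78.4 CPM in mPFC. The libraries share their region and marker differences, so that these likenesses are descriptions of the same 8 libraries.

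A list of 34 further endocannabinoid genes was examined, of which 32 could be tested in each comparison. It holds 8 receptors and binding partners, 15 enzymes, 5 intracellular carriers and 6 receptors or phospholipases C that feed the diacylglycerol lipases. Gpr18, a receptor of the list, was listed at 0 in every library. It lies inside Ubac2, and its 0, like that of P2ry12, may not be read as absent RNA. After cocaine none was called, with Gdpd3 and Fabp7 having the smallest p-values (adjusted p = 1.0). After defeat 1 of 32 was called, where 0.549% of all genes were called higher and 0.155% lower. This was the cyclooxygenase gene Ptgs2, whose enzyme also oxidises 2-AG and anandamide and which is known as an activity-induced gene. It rose from 14.8 and 14.7 CPM to 21.4 and 17.1 CPM, a log2 fold change of 0.38 (SE 0.0914, edgeR adjusted p = 0.0204). This call was lost with DESeq2 (adjusted p = 0.0993), in the fit of all 8 libraries (adjusted p = 1.0) and without defeat library 1 (0.20, adjusted p = 1.0). The difference between the responses gave no call among the 32, the smallest p-values being those of Pla2g4e and Fabp7.

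Between the regions the further genes moved in both directions. In home-cage mice 2 of 32 were higher and 3 lower in NAc, close to the 7.01% and 5.35% over all genes, and none of the 7 receptors and partners tested was called. Ptgs2 was lower, at 3.16 and 5.45 CPM in NAc and 14.8 and 14.7 CPM in mPFC (log2 fold change -1.79, SE 0.267, edgeR adjusted p = 0.0185). Upstream of Dagla, the phospholipase C gene Plcb4 (-1.15, SE 0.170, adjusted p = 0.0182) and the muscarinic receptor gene Chrm3 (-1.22, SE 0.216, adjusted p = 0.0277) were lower. Chrm3 encodes a Gq-coupled receptor, whose activation yields diacylglycerol. Fabp7, a fatty acid binding protein of astrocytes and progenitors, was higher (1.25, SE 0.191, adjusted p = 0.0195), at 4.02 and 5.34 CPM against 1.98 and 1.94 CPM. Naaa, an acid amidase that breaks down other N-acylethanolamines in lysosomes, was higher as well (0.49, SE 0.104, adjusted p = 0.0418). All 5 calls were lost without either mPFC home-cage library, and 18 genes of the list were called with NAc home-cage library 2 left out, 10 with library 1 left out, and 9 by DESeq2, where over all genes 8048, 5518 and 3683 were called.

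In exposed mice 6 of 32 were higher and 9 lower in NAc, where 19.2% and 17.1% of all genes were, so that the number higher was near the background: 2 and 1 of the receptors and partners, 2 and 4 of the enzymes, 1 and 1 of the carriers, and 1 and 3 of the genes upstream of Dagla. The 6 with the smallest p-values were Fabp3 (-0.56, edgeR adjusted p = 0.00411), a fatty acid carrier, Plaat3 (0.68, adjusted p = 0.00430), a phospholipase and acyltransferase, Fabp7 (0.86, adjusted p = 0.00518), Naaa (0.53, adjusted p = 0.00715), Ptgs2 (-2.10, adjusted p = 0.00762) and Plcb4 (-0.90, adjusted p = 0.00775). The list's median was -0.03, against 0.01 over all genes, and that of the 7 genes was -0.33. Without defeat library 1 none of the 32 was called, and without library 2 the count was 2.

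**Figure D4:**
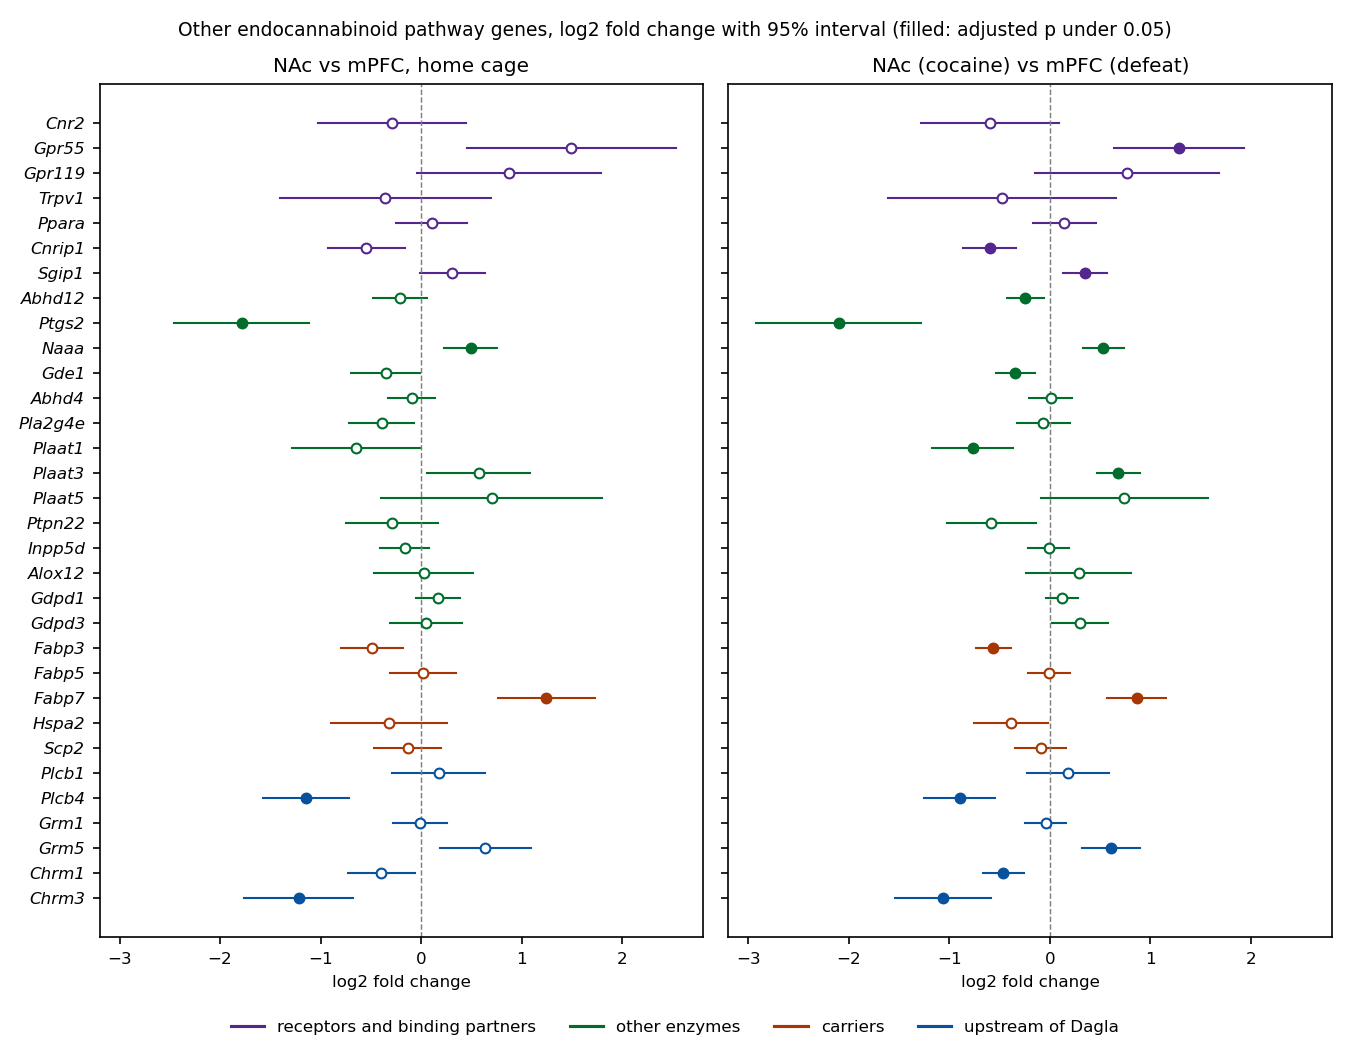
Log2 fold change of NAc against mPFC (horizontal axis) with its 95% interval for the 32 further genes tested, in home-cage and in exposed mice, coloured by role and filled where the edgeR adjusted p is under 0.05. Ptgs2, Plcb4 and Chrm3 are filled to the left of 0 and Fabp7 and Naaa to the right in both panels.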

How the data were processed

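Total RNA of NAc and mPFC tissue was sequenced in 8 libraries, 2 per group. The authors used STAR 2.7.1a, mm10 and featureCounts, per the submitters' processing notes. The deposited tables hold raw whole-number counts per gene symbol, 1 table per region, and 0 sample columns were left unmapped. For featureCounts, its version, its annotation and its settings for strand, introns and multimapping reads were not given in the sources used here. From these counts, edgeR 4.0.16 (R 4.3.3) was run for 5 comparisons with filterByExpr, TMM factors and the quasi-likelihood test, and p-values were adjusted by Benjamini-Hochberg over all genes tested. Calls were made at an adjusted p under 0.05. Each SE is the absolute log2 fold change over the root of its F statistic. Model scripts were tested on simulated data with 200 changed genes. Alternatives were other size factors, DESeq2 1.42.0, no low-count filter, a fit of all 8 libraries, leaving out each library, and the NAc replicate number as a block. An exact permutation test of 2 against 2 libraries cannot give a two-sided p under 0.33, so none was used.

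The 7 genes are all named; of the 34 further genes, those called were named, up to 6 per comparison by smallest p, or the 2 with the smallest p where none was called. The members and lists were chosen with earlier results of these data known. Gene positions are from GENCODE M21, which matched 32962 symbols to 1 gene. Promoter windows are from RefSeq on GRCm38.p6. No library pair of a group agreed within sampling noise (chi-square per degree of freedom 22.8 to 299).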

Additional observations from a re-analysis of the deposited data

How the results depend on the processing

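None of the 7 genes was called for cocaine, defeat or the difference between the responses under any alternative run. Genes called over the whole table moved more. For cocaine, DESeq2 called 4 and the replicate block 38 (33 higher, 5 lower), against 0. For defeat, the fit of all 8 libraries called 5 and leaving out 1 library 58 to 238, against 127. For the home-cage regions, against 2262, DESeq2 called 3683, the fit of all 8 libraries 4654, leaving out 1 library 0 to 8048, and leaving out both NAc libraries numbered 2 8802. For the exposed regions leaving out 1 library gave 1133 to 9334, against 6672. For the difference, DESeq2 called 2, the replicate block 3 and leaving out 1 library 0 to 1. Among the 7 genes, home-cage calls were 4 in the fit of all 8 libraries, which added Daglb and Abhd6, 5 without both NAc libraries numbered 2, and 0 to 5 when 1 library was left out. Exposed calls were 0 to 6 then. No member turned its sign in a region comparison under the alternatives run. The cause of these changes was not tested.

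Leaving out 1 library turned signs near 0. The cocaine fold changes ran from -0.33 to 0.17 for Cnr1, -0.11 to 0.090 for Dagla, -0.060 to 0.10 for Daglb, -0.13 to 0.25 for Mgll, -0.34 to 0.39 for Faah and -0.16 to 0.44 for Napepld. That of Cnr1 after defeat ran from -0.070 to 0.048. The difference between the responses ran from -0.32 to 0.18 for Cnr1, -0.050 to 0.17 for Dagla, -0.30 to 0.45 for Faah, -0.23 to 0.38 for Napepld and -0.10 to 0.016 for Abhd6. With the replicate block Faah after cocaine was 0.0092. Same-numbered NAc libraries deviated together (r = 0.793 across 14071 genes, which are not independent replicates), but only 2 numbers exist and the labels do not say what they mark, so the fit without the block is reported. Under that block the SEs after cocaine shrank, for Faah to 0.0837 from 0.298, Cnr1 to 0.0817 from 0.239 and Napepld to 0.105 from 0.246. Home-cage titles of both regions also carry 1 and 2. With them as a replicate block, added after seeing the data, 2174 genes and the same 2 members (Dagla and Napepld) were called, and Naaa was lost (adjusted p = 0.0501). The block for the difference uses the NAc numbers and was also added then. The other comparisons share no label numbers. Fits that leave 1 library in a group assume that it varies like the other group. With 2 libraries a group, the spread is poorly known, which limits what can be seen. The part of depth was not tested.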
